A study of Patiria miniata with 6 samples.

Results

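The Delta-Notch genes Pm-Delta, Pm-Adam10, Pm-Nrarp and Pm-Hey were followed in an echinoderm, the bat star Patiria miniata, at the hatched blastula stage. They were found by name in the authors' deposited table, where 7 of 27630 loci carried exactly 1 of these names, out of 80165 counted loci in all. Pm-Adam10 was carried by 4 loci, and each of the other genes by 1. Each library was made from pooled whole embryos, injected as zygotes with a morpholino antisense oligonucleotide (MASO) at 600 µM and kept at 15 °C. The 3 control MASO libraries came from embryos given a standard control oligonucleotide and collected at 30 hours post fertilization (hpf). The 3 Pm-Tbr MASO libraries came from embryos given a MASO that targets the T-box transcription factor Pm-Tbr, and collected at 36 hpf. Age and morpholino therefore cannot be told apart, and only embryos that passed a sort on rhodamine tracer and normal appearance were used. The labels give no genotype, strain or clutch, and the transcript of Pm-Tbr itself is not reported, so the knockdown was not checked at its target.

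Delta is a membrane-bound ligand that binds the receptor Notch on a neighbouring cell. Binding lets the metalloprotease Adam10, called Kuzbanian in flies, cut Notch outside the membrane, after which gamma-secretase frees an intracellular piece that acts in the nucleus with the DNA-binding protein Su(H). Hey, a basic helix-loop-helix repressor, and Nrarp, an ankyrin-repeat protein that dampens the signal, are targets of the pathway in vertebrates. In sea urchin embryos Delta made by skeletogenic precursors directs neighbouring cells to mesodermal fates, and in flies and vertebrates Delta-Notch signals limit how many cells become neurons.

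The 4 genes were chosen by the measured difference between these same groups, which was known beforehand, so their values are a description and the calls on them support nothing further. Libraries held 17795136 to 28167566 counts assigned to loci, so 1 count was worth 0.0334 to 0.0583 CPM (counts scaled to a common library total). CPM values are scaled by TMM (trimmed mean of M values) library sizes, and differences are log2 values of Pm-Tbr MASO minus control MASO. Their standard error (SE) was derived from edgeR's quasi-likelihood fit, as the absolute log2 difference divided by the square root of the F statistic. Reads that aligned to several places were not assigned to any locus. Since whole embryos were pooled, fewer cells of a type and less RNA per cell cannot be told apart. Markers of embryonic territories moved with the groups. Without a block for the replicate number, edgeR called 5 of 11 ectoderm loci, 4 of 8 endoderm loci, 1 of 10 mesoderm loci and 0 of 4 neural loci lower and none higher, where 0.922% of all tested loci were called lower. With the block 8 ectoderm, 6 endoderm and 2 mesoderm loci were lower and 1 neural locus, Pm-Prox1, was higher, where 4.26% of all tested loci were lower and 5.83% higher. Their summed levels were 4305 to 5464 CPM in control and 2178 to 3283 CPM in Pm-Tbr MASO libraries for ectoderm, 1279 to 1466 and 602 to 817 CPM for endoderm, 883 to 1034 and 744 to 787 CPM for mesoderm, and 513 to 590 and 280.4 to 404 CPM for neural loci. All 4 ranges were lower without overlap in Pm-Tbr MASO embryos, and all 11 ectoderm and all 8 endoderm loci had a negative difference, but 5 of 10 mesoderm loci and 1 of 4 neural loci had a positive difference. In mesoderm Pm-Gcm (166 ± 34.7 against 29.6 ± 12.1 CPM) was called lower in both fits and Pm-Tgif (236 ± 21.3 against 123 ± 26.6 CPM) with the block. The 4 Pm-Ets1/2 loci and Pm-GataC locus XLOC_073482 (47.9 ± 16.4 against 78.2 ± 11.8 CPM, without overlap) had positive differences and were called in neither fit. The other Pm-GataC locus, XLOC_034419 (49.0 ± 3.06 against 37.6 ± 8.80 CPM), Pm-Erg and Pm-Scl had negative log2 differences of -0.38, -0.61 and -0.80. They were called in neither fit as well. The neural sum was mostly Pm-SoxC and the ectoderm sum mostly Pm-Soxb1 (3480 ± 527 against 2127 ± 556 CPM), both called in neither fit. Pm-FoxA (685 ± 47.5 against 436 ± 83.1 CPM), the most abundant endoderm locus, was called in neither fit as well. No marker locus was at 0 in any library, the neural loci also belong to the Delta-Notch list used further on, and the part of these shifts in the Delta-Notch values was not tested.

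Pm-Delta and the targets Pm-Nrarp and Pm-Hey were lower, and the Pm-Adam10 loci higher, after Pm-Tbr MASO in every same-numbered pair of libraries. Pm-Delta averaged 146 ± 33.1 CPM in control MASO and 82.0 ± 21.4 CPM in Pm-Tbr MASO embryos (SD, n = 3 per group). Pm-Nrarp went from 44.7 ± 6.73 to 22.3 ± 11.9 CPM and Pm-Hey from 9.52 ± 5.85 to 4.79 ± 3.71 CPM, while the 4 Pm-Adam10 loci together went from 114 ± 16.5 to 195 ± 41.5 CPM. All 7 loci kept 1 direction over the 3 pairs, as did 51.6% of all 44120 tested loci. With group as the only term, 0 of the 7 loci passed an adjusted p of 0.05 in edgeR's quasi-likelihood test, against 2.28% of all tested loci (1.36% higher and 0.922% lower); 4 had an unadjusted p under that value, as did 20.0% of all tested loci. DESeq2 called 1, Pm-Adam10 locus XLOC_037516, and 9.71% of the 42341 loci to which it gave an adjusted p. With the replicate number as a block, 5 of 7 were called, 3 lower and 2 higher, where 10.1% of all loci were called, 4.26% lower and 5.83% higher. The 5 were Pm-Delta, Pm-Nrarp, Pm-Hey and the Pm-Adam10 loci XLOC_037516 and XLOC_050983. Without pair 1 or without pair 3 the block left 0 of these calls, with 5 loci at an unadjusted p under 0.05 in each case (20.4% and 21.8% of all tested loci). Without pair 2 the block left 5. Over all 44120 tested loci, the block fits with a pair left out called from 852 to 5722.

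**Figure D1:**
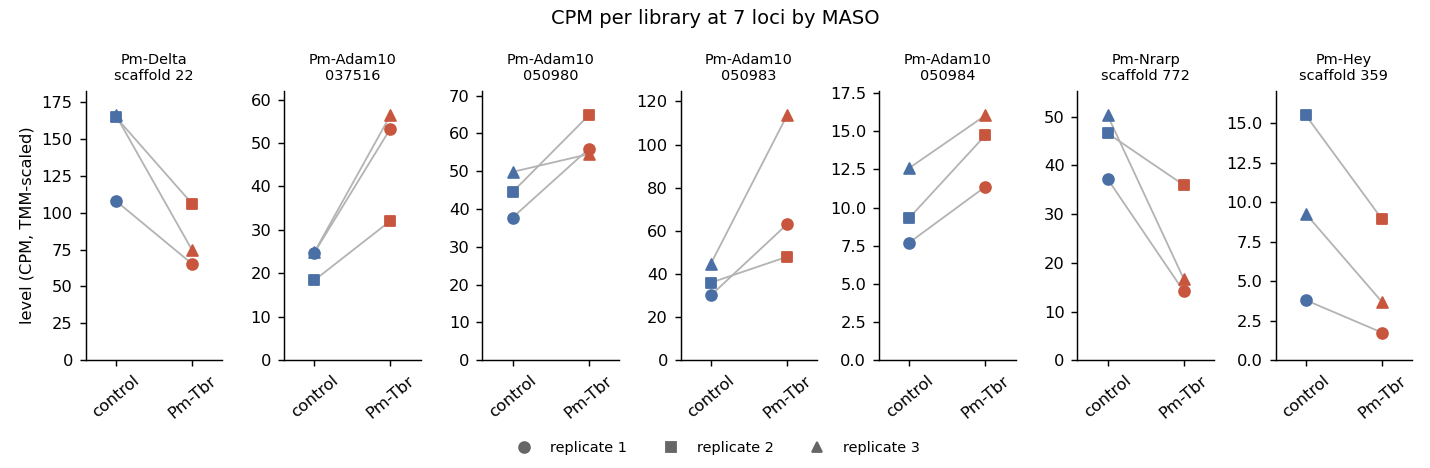
TMM-scaled CPM (vertical axes, each from 0) in control MASO and Pm-Tbr MASO libraries for the 7 loci; each point is 1 library, symbols mark the replicate number and lines join same-numbered libraries. Every line slopes down for Pm-Delta, Pm-Nrarp and Pm-Hey and up for the 4 Pm-Adam10 loci, and the groups overlap at Pm-Hey and at Pm-Adam10 locus XLOC_050984.

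Pm-Delta, the ligand, lies on scaffold 22 from 208763 to 224149 on the plus strand, in gene model PMI_001800. Positions are those of the authors' table; the sources used here do not give its genome build. Control MASO replicates 1, 2 and 3 held 108, 165 and 166 CPM, from 2815, 4486 and 4176 counts. Pm-Tbr MASO replicates 1, 2 and 3 held 65.3, 106 and 74.7 CPM, from 1120, 3173 and 1336 counts. The groups did not overlap, but the lowest control library and the highest Pm-Tbr library were nearly level, at 108 and 106 CPM. The log2 difference was -0.83 ± 0.27 (SE), a level 1.78-fold lower, and by pair it was -0.72, -0.63 and -1.15. Pm-Delta was the only locus of a ligand name in the list; Jagged and Serrate were not analysed here.

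Pm-Nrarp, the ankyrin-repeat target, lies on scaffold 772 from 60179 to 65446 on the plus strand (PMI_008698). The control libraries were close together, at 37.2, 46.6 and 50.3 CPM in replicates 1, 2 and 3. The Pm-Tbr MASO libraries were not, at 14.2, 36.0 and 16.7 CPM. Replicates 1 and 3 thus lay far below every control library, whereas replicate 2 stood just under the lowest control. The log2 difference of -1.0 ± 0.37 was -1.39 in pair 1, -0.37 in pair 2 and -1.58 in pair 3. Leaving out Pm-Tbr MASO replicate 2 moved it to -1.54, and with single libraries left out in turn it ranged from -1.54 to -0.78.

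Pm-Hey, the helix-loop-helix repressor, lies on scaffold 359 from 112362 to 116813 on the minus strand (PMI_006313), and was the shallowest of the 4 genes, with 30 to 422 counts per library. Its control libraries spread widely, at 3.80, 15.5 and 9.26 CPM, and its Pm-Tbr MASO libraries at 1.75, 8.93 and 3.69 CPM. The order of replicate numbers was the same in both groups, with replicate 2 highest and replicate 1 lowest, and the groups overlapped. Within pairs the values were less spread, at -1.08, -0.79 and -1.31. The SE of the log2 difference was 0.66 without the block (difference -0.98) and 0.25 with it (difference -1.07). Without control MASO replicate 2 the difference shrank to -0.44, without Pm-Tbr MASO replicate 1 to -0.60, and without Pm-Tbr MASO replicate 2 it grew to -1.81.

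**Figure D2:**
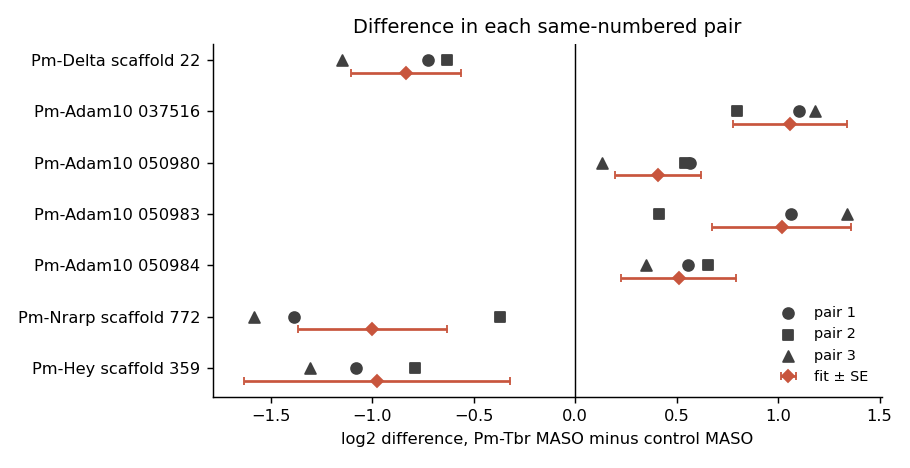
Log2 difference in level, Pm-Tbr MASO minus control MASO (horizontal axis), in each same-numbered pair of libraries (black symbols) and in the fit without the block (red diamonds with SE bars) for the 7 loci. All 21 pair values lie on the side of their locus's fitted value; pair 2 is the nearest to 0 at Pm-Delta, Pm-Nrarp, Pm-Hey and Pm-Adam10 loci XLOC_037516 and XLOC_050983, and pair 3 at the other 2 loci.

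Pm-Adam10, the protease, was split over 4 loci in 3 gene models. XLOC_037516 lies on scaffold 2776 from 7438 to 22812 on the minus strand (PMI_009184). The other 3 are neighbours on scaffold 4517: XLOC_050980 from 11912 to 33800 on the plus strand, XLOC_050984 from 34247 to 36963 with no strand, and XLOC_050983 from 37200 to 55084 on the minus strand. XLOC_050980 and XLOC_050984 share gene model PMI_014544 and lie 446 bases apart, and XLOC_050983, of PMI_014545, begins 236 bases further on. None of the 4 overlapped another locus of the table. Reads of near-identical copies may be split between such loci or left unassigned, so the level of a single locus is uncertain.

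The 4 loci formed a pair with larger and a pair with smaller differences. XLOC_037516 held 24.7, 18.4 and 24.8 CPM in control MASO replicates 1, 2 and 3 and 53.3, 32.1 and 56.4 CPM in Pm-Tbr MASO replicates 1, 2 and 3. Replicate 2 was the lowest library in both groups, and the groups did not overlap; the log2 difference was 1.06 ± 0.28, or 2.08-fold. XLOC_050983 held 30.1, 36.0 and 44.8 CPM against 63.0, 48.0 and 114 CPM, with a log2 difference of 1.02 ± 0.34. Here Pm-Tbr MASO replicate 3 stood far above the others, and without it the log2 difference was 0.58.

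At XLOC_050980 the control MASO libraries held 37.7, 44.5 and 49.8 CPM and the Pm-Tbr MASO libraries 55.9, 64.8 and 54.5 CPM. The groups were close but did not overlap, and the log2 difference was 0.41 ± 0.21. XLOC_050984, the least abundant, held 7.71, 9.33 and 12.6 CPM against 11.4, 14.7 and 16.0 CPM, which overlapped, with a log2 difference of 0.51 ± 0.28. Across the 6 libraries the profiles of these loci, which share a gene model, differed by a root mean square of 0.19 on the log2 scale after centring. XLOC_037516 and XLOC_050983, which lie on different scaffolds, differed by 0.31, and the 4 other pairings of Pm-Adam10 loci by 0.39 to 0.51.

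Summed over its 4 loci, Pm-Adam10 reached 100.3, 108 and 132 CPM in control MASO and 184, 160 and 240.5 CPM in Pm-Tbr MASO libraries, with no overlap between groups. A fit on the summed counts gave a log2 difference of 0.78 ± 0.23, which was not called, and 0.77 ± 0.19 with the block, which was. XLOC_050983 made up 32.4 ± 2.09% of the sum in controls and 37.2 ± 8.93% in Pm-Tbr MASO embryos, and 47.2% in Pm-Tbr MASO replicate 3 alone. XLOC_050980 made up 38.8 ± 1.99% and 31.2 ± 8.99%. In both cases the shift in share was smaller than the spread among Pm-Tbr MASO libraries.

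**Figure D3:**
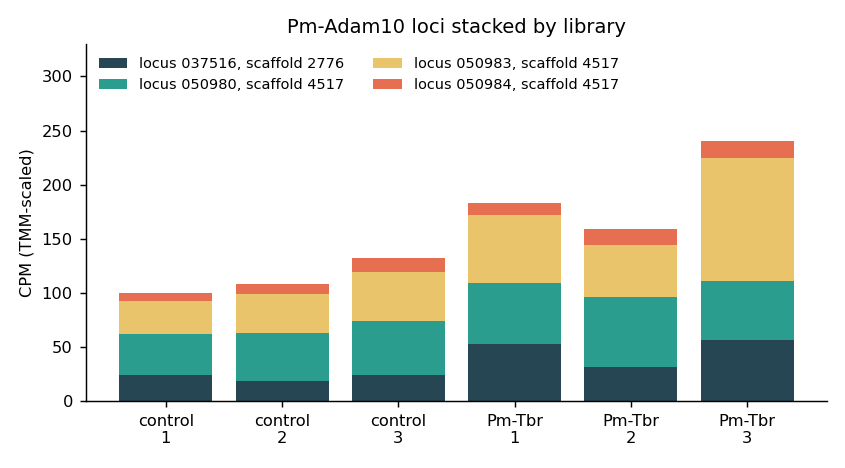
CPM of the 4 Pm-Adam10 loci stacked for each library (vertical axis from 0); colours mark the loci by the last digits of their identifiers. The sums run from 100.3 to 132 CPM in control MASO and from 160 to 240.5 CPM in Pm-Tbr MASO libraries, and the tallest bar, Pm-Tbr MASO replicate 3, owes 114 CPM to XLOC_050983.

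No overlap in CPM between groups was seen at 5 of the 7 loci, of which 3 were higher and 2 lower after Pm-Tbr MASO. Of all tested loci 26.5% had none, 13.3% on the higher and 13.3% on the lower side; the contrast was used to choose the genes, so nothing is read from this share. None of the 7 loci had a false discovery rate under 0.05 in the authors' deposited table, against 9.27% of all its loci. The 2 nearest were Pm-Adam10 loci XLOC_037516 and XLOC_050983, at 0.052 and 0.054 in the authors' deposited table. The authors' deposited table gave Pm-Delta a log2 fold change of -0.78 and a rate of 0.100, and Pm-Nrarp and Pm-Hey rates of 0.154 and 0.426.

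Ratios between these genes were taken within each library. Pm-Delta and Pm-Adam10 were chosen by this same contrast, so a shift in their ratio follows from the choice and adds no support. The summed Pm-Adam10 CPM was 0.929, 0.657 and 0.796 times that of Pm-Delta in control MASO replicates 1, 2 and 3, and 2.81, 1.504 and 3.22 times in Pm-Tbr MASO replicates 1, 2 and 3. Since loci differ in length, only the change of this ratio between libraries can be read, not its size. The ratio of Pm-Nrarp to Pm-Delta spanned 0.283 to 0.345 in controls and 0.217 to 0.339 in Pm-Tbr MASO embryos. Pm-Tbr MASO replicates 1 and 3, at 0.217 and 0.224, lay below every control, and only replicate 2, at 0.339, overlapped. That of Pm-Hey to Pm-Delta spanned 0.0352 to 0.0941 in controls and 0.0268 to 0.0841 in Pm-Tbr MASO embryos, and also overlapped. Centred profiles of Pm-Delta and Pm-Nrarp differed by a root mean square of 0.26 on the log2 scale, those of Pm-Nrarp and Pm-Hey by 0.57 and those of Pm-Delta and Pm-Hey by 0.62. Centring keeps the group difference by which the genes were chosen. With group means taken out, Pm-Delta differed from Pm-Nrarp by 0.22 and from Pm-Hey by 0.61. From the Pm-Adam10 loci it then differed by 0.18 to 0.55, so Pm-Nrarp was not its nearest.

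The other Delta-Notch genes gave 50 further loci, all of them tested. In edgeR's quasi-likelihood test with group as the only term 0 were called, where 2.28% of all loci were, and 6 had an unadjusted p under 0.05, where 20.0% of all loci did. DESeq2 called 2 of the 50, where it called 9.71% of all loci with an adjusted p. Their median log2 difference was -0.10, beside 0.01 over all 44120 tested loci. With the block 2 were higher and 1 lower, or 3 of 50, where 10.1% of all loci were called. These were Pm-Deltex4 locus XLOC_043780, Pm-Prox1 and Pm-Pofut1-3 locus XLOC_023526.

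Pm-Deltex4 carries the name of Deltex, a ubiquitin ligase that binds Notch in flies. At XLOC_043780 the control libraries held 14.6, 14.6 and 13.7 CPM and the Pm-Tbr MASO libraries 39.2, 30.4 and 23.4 CPM, without overlap. The log2 difference was 1.117 ± 0.255 (adjusted p = 0.0632 in edgeR; 0.0267 with the block, and 0.0014 to 0.190 over all alternatives). The authors' deposited table gave it a false discovery rate of 0.0230, the only 1 of the 50 loci under 0.05 there, where 9.27% of all its loci were. Its 2 other loci lay on the opposite side, XLOC_063932 with 15.3 ± 1.79 against 10.5 ± 2.79 CPM and XLOC_069660 with 8.89 ± 1.25 against 6.78 ± 0.570 CPM, and were not called in either fit. Pm-Prox1, a homeobox gene of the Prospero family, held 22.5, 15.8 and 3.54 CPM in controls and 34.0, 36.7 and 19.1 CPM in Pm-Tbr MASO embryos. The groups overlapped, and the log2 difference was 1.11 ± 0.58 (adjusted p = 0.338 in edgeR; 0.0487 with the block, and 0.0014 to 0.554 over all alternatives). Without control MASO replicate 3 it was 0.65.

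Pm-Pofut1-3 carries the name of an O-fucosyltransferase that adds fucose to the EGF repeats of Notch. XLOC_023526 held 23.0, 21.2 and 41.0 CPM in controls and 11.8, 10.8 and 26.1 CPM in Pm-Tbr MASO embryos, with replicate 3 highest in both groups. Its log2 difference was -0.81 ± 0.42 (adjusted p = 0.326 in edgeR; 0.0414 with the block, and 0.0101 to 0.630 over all alternatives). The second Pm-Pofut1-3 locus, XLOC_069762, had a log2 difference of -0.97 ± 0.42 that passed in neither fit (adjusted p = 0.245 in edgeR and 0.0613 with the block).

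The most abundant loci of the receptor, processing and modulator steps differed between groups by less than the SD of the control libraries. The receptor Pm-Notch had 208 ± 74.1 against 187 ± 27.6 CPM at XLOC_047430, a log2 difference of -0.15 ± 0.30, and -0.44 ± 0.24 at its other locus. Of the 16 processing loci, which include the proprotein convertase Pm-Furin_1, the ubiquitin ligases Pm-Mib1_2 and Pm-Mib2_8 and the gamma-secretase subunit Pm-Pen2, 15 did not pass in either fit. The most abundant, Pm-Furin_1 at XLOC_079795, had 82.4 ± 16.5 against 94.3 ± 4.59 CPM. None of the 7 nuclear loci (the corepressor Pm-Tle1/Groucho and the coactivator Pm-Snw1) passed in edgeR with or without the block. Of all tested loci, 2.28% passed without the block and 10.1% with it, so no result is read from the counts by role. Pm-Snw1 had 57.7 ± 3.002 against 48.7 ± 3.80 CPM at its most abundant locus, XLOC_079884, without overlap between groups. Of the 17 modulator loci 1, Pm-Deltex4, was called with the block, and the most abundant of them, Pm-Nedd4 at XLOC_052104, had 58.4 ± 6.33 against 53.3 ± 7.58 CPM.

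The other targets did not share one direction. Pm-HesC, a Hes-family repressor that holds delta off in most cells of sea urchin embryos, had 178 ± 35.8 against 172 ± 26.6 CPM, a log2 difference of -0.05 ± 0.23. Pm-Hairy2/4, a related repressor name, had 1 locus on each side, and both were picked for mention after their values were seen. XLOC_022710 had 185 ± 22.4 against 123 ± 10.9 CPM and XLOC_038292 had 78.5 ± 23.5 against 137 ± 29.4 CPM, each without overlap between groups, with log2 differences of -0.60 ± 0.20 and 0.81 ± 0.29. Neither passed (adjusted p = 0.150 and 0.172 in edgeR without the block, and 0.106 and 0.0902 with it), while DESeq2 with the block called XLOC_038292. Among the 4 neurogenic loci the most abundant was Pm-SoxC, a transcription factor of neural precursors in sea stars, with 492 ± 28.2 against 298 ± 58.5 CPM. Its groups did not overlap, and its log2 difference of -0.73 ± 0.22 did not pass (adjusted p = 0.116 in edgeR and 0.0581 with the block), though DESeq2 called it with and without the block.

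**Figure D4:**
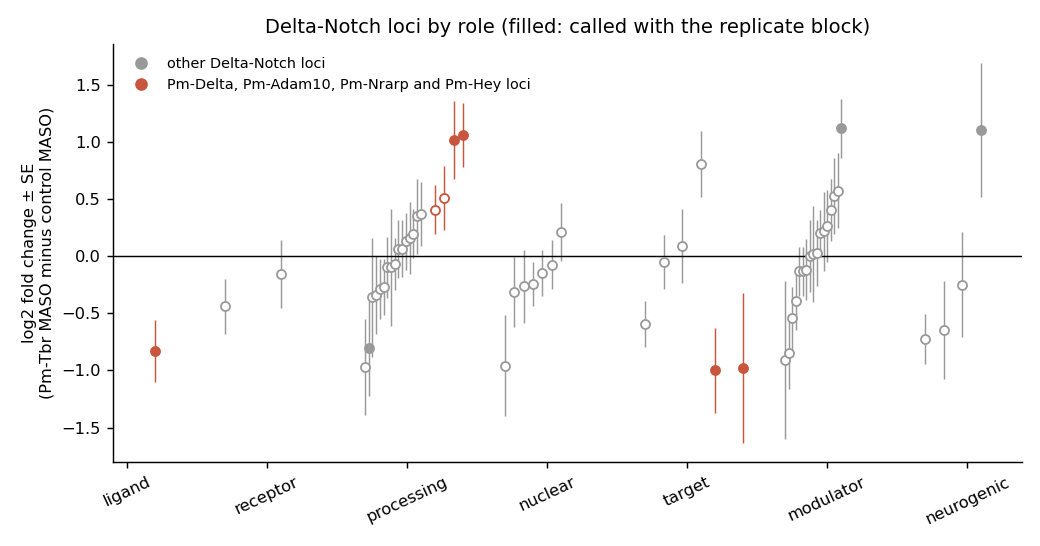
Log2 fold change with SE, Pm-Tbr MASO minus control MASO (vertical axis), for 50 other Delta-Notch loci (grey) and the 7 loci of Pm-Delta, Pm-Adam10, Pm-Nrarp and Pm-Hey (red), by role; filled points were called with the replicate block. Most grey loci lie near 0, with a median of -0.10, and only 3 of them are filled.

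Loci with the profile most like each gene were ranked by the root mean square difference of centred log2 CPM over the 6 libraries, among 12319 to 12322 named loci with a mean of at least 2 CPM. For Pm-Delta these were Pm-Rrm2_1, the name of a ribonucleotide reductase subunit, Pm-Capn5L and Pm-C19orf51, at 0.08, 0.09 and 0.10, where the median over all compared loci was 0.61. For Pm-Adam10 locus XLOC_050983 they were Pm-Prmt2, Pm-C7orf25 and Pm-Trip4, at 0.14, 0.15 and 0.17. For Pm-Nrarp they were Pm-Pbf6L, Pm-Ptcd3 and Pm-Fcmd, at 0.16, 0.17 and 0.17. Pm-Hey had no locus as close, and its nearest were Pm-Jagnh1L, Pm-Toe1 and Pm-Unc44_123, at 0.29, 0.38 and 0.39. The median over all compared loci was also largest for Pm-Hey, at 1.09, beside 0.76 for XLOC_050983 and 0.78 for Pm-Nrarp. The ranked profiles keep the group difference by which the genes were chosen, and the nearest loci lie below the median by construction. Some were also shallow, as Pm-Fcmd and Pm-Toe1 averaged 2.03 and 1.66 CPM in Pm-Tbr MASO libraries. Nothing further is read from the likeness.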

How the data were processed

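TruSeq libraries of 2 groups, 3 per group, were compared. For each library the authors deposited raw read counts per locus as whole numbers. A further table that the authors deposited holds their comparison (log2 fold change, log2 CPM, p-value, false discovery rate and an F score). The submitters' processing notes name TopHat2 2.0.12, Cufflinks 2.2.1, HTSeq 0.6.1p1 and edgeR 3.10.5; genome build and strand setting are not stated there. The labels do not mention separate spawnings, so a p-value reflects only how much these samples differ, possibly for technical reasons. Summary lines (49.0% to 50.6% of each library's total) stayed out.

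Counts were fitted with edgeR 4.0.16 in R 4.3.3 (filterByExpr, TMM, quasi-likelihood F test, Benjamini-Hochberg over 44120 loci, threshold 0.05); DESeq2 1.42.0 served as an alternative. Log2 CPM used a prior count of 2. Same-numbered libraries deviated together from their group means (r = 0.53, 0.22 and 0.56 across loci for numbers 1, 2 and 3). For unlike numbers r was -0.47 to -0.05, but deviations within a group cancel out, so these values are not separate evidence. The pairing thus rests on the counts and not on a batch given in the labels, and values with the replicate block stand beside each call that they change.

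Genes and lists were chosen with earlier results of these data known. Loci with several names entered a list when every name belonged to it. Named from the list were loci called in either fit and the most abundant of each role, and for each of the 4 genes the 3 loci nearest in profile to its most abundant tested locus. Of the list, 1 gene is not reported here.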

Additional observations from a re-analysis of the deposited data

How the results depend on the processing

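All 113 alternative values of the 7 loci kept the sign of the reported difference. The count of these loci called was 0 under RLE scaling, library totals only, a filter that kept the 75344 loci with at least 1 count, and a filter at CPM above 2 in 3 libraries; it was 1 with DESeq2, 5 with the replicate block and 5 with DESeq2 and the block. In the other Delta-Notch loci the counts were 1 at CPM above 2, 2 with DESeq2, 3 with the replicate block and 7 with DESeq2 and the block. Over all 44120 loci 1008 were called, against 1002 under RLE scaling and 1009 with library totals only. The filters gave 1150 of 75344 loci with at least 1 count and 1449 of 27630 at CPM above 2. DESeq2 called 4110 (9.71% of loci with an adjusted p) and the block 4455 (10.1%). Both together called 6534, or 16.1% of the 40698 loci with an adjusted p. Without single libraries there were 0 calls among the 7 and among the other Delta-Notch loci, and 0 to 479 over all loci; the 0, without control MASO replicate 2 in edgeR, stood beside 6643 loci at an unadjusted p under 0.05. Without single pairs the block gave 0 to 5, 0 to 3 and 852 to 5722 calls, with 1601 of all loci called without pair 3. The fits with DESeq2 and the block and with pairs left out were chosen after seeing the data. Values near 0 changed sign: without single libraries Pm-HesC ranged from -0.209 to 0.0466 and Pm-Notch from -0.4046 to 0.1038, and under the block without pair 3 these had 0.1193 and 0.0738. The cause of these shifts was not tested. Counts limit Pm-Hey most, with 30 in its lowest library.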

Other observations

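A further 41 loci carried numbered or "like" Notch names, such as Pm-Notch1-21 or Pm-Notchl1; such names can also be given to other proteins with EGF repeats, so they were kept apart from Pm-Notch. Of these, 33 had positive and 8 negative log2 differences (Pm-Tbr MASO minus control MASO), with a median of 0.45 beside 0.01 over all tested loci. In edgeR's quasi-likelihood test 0 were called without the block, with 9 at an unadjusted p under 0.05, where 20.0% of all tested loci had one, and 4 were called with it, all higher, where 5.83% of all loci were called higher. No overlap between groups was seen at 11 loci, all higher in Pm-Tbr MASO embryos, where 13.3% of all tested loci were higher without overlap. The most abundant was Pm-Notch1-21 at XLOC_044789, chosen after its values were seen, with 387 ± 28.1 CPM in control MASO and 760 ± 186 CPM in Pm-Tbr MASO embryos (SD, n = 3 per group), called with the block only. The other loci of this name, XLOC_004438, XLOC_039156 and XLOC_078854, had log2 differences of 0.04, 0.35 and -0.07 and were called in neither fit.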
